A study of Mus musculus with 8 samples.

Results

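The cytoplasmic ribosomal protein genes were followed in cultured mouse cartilage cells that had received a miR-204 mimic or a control small RNA (miR-Ctrl). Members were the genes whose symbol starts with Rpl or Rps and a digit or with Rplp, together with Rpsa, at a mean of at least 10 FPKM over all 8 libraries. FPKM counts sequenced fragments after division by the length of the transcript and by the depth of the library. Kinase genes of the Rps6k family and rows with -ps in the symbol, a mark of pseudogenes, were left out. This gave 85 of the 24067 genes in the table. Of these, 31 encode proteins of the small (40S) subunit, 43 of the large (60S) subunit and 3 of the stalk of the large subunit. The other 8 are Rpl22l1, Rps27l, Rpl39l, Rpl7l1, Rpl36al, Rps4l, Rps27rt and Rps19bp1, which are paralogs, near-copies or other proteins with such a symbol. The level cut fell in a wide gap. The lowest members were Rps27 at 13.8, Rpl39l at 20.2 and Rps19bp1 at 20.7 FPKM. The 2 genes of such names below the cut were Rpl3l at 0.0362 and Rpl10l, listed at 0.

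The cells were primary articular chondrocytes taken from the ends of the femur and tibia of ICR mice aged 5 days. They were grown with fetal bovine serum at low oxygen. Each group received 50 nM of its small RNA for 24 h and was harvested 24 h after that, and each group had 4 libraries numbered 1 to 4. The groups share the strain, the age, the dose and the medium, and no group without transfection was analysed here. Whether the 4 libraries of a group came from separate cultures or mice is not stated in the labels. The p-values therefore describe the spread among these libraries, which may be technical.

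All 11 chondrocyte markers found in the table reached a mean of 1 FPKM, and their summed level was 13771 to 42393 FPKM in the miR-Ctrl libraries and 13925 to 33989 with miR-204. Fibroblast markers, Col1a1 and Col1a2 among them, summed to 1570 to 3330 FPKM in miR-Ctrl and 1510 to 3483 with miR-204. Endothelial markers summed to at most 0.169 FPKM in any library and erythroid markers to at most 0.398. Macrophage and leukocyte markers summed to between 3.18 and 16.0 FPKM. Smooth muscle and pericyte markers summed to 135 to 172 FPKM in the miR-Ctrl libraries and 231 to 326 with miR-204, mostly from Acta2 and Tagln, and their part in the results below was not tested. Both libraries numbered 2 stood apart: the matrix protease gene Mmp13 reached 908 and 1628 FPKM there and 3.66 to 54.8 in the others. The sum of all FPKM ranged from 416560 to 490818. Depth in reads is unknown. Steps between low values put the depth at 0.772 to 0.961 of that of miR-Ctrl replicate 1, with both number 2 libraries the shallowest.

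Ribosomal proteins are made in near-equal molar amounts and assemble with ribosomal RNA in the nucleolus into the 2 subunits that decode mRNA and join amino acids. Their mRNAs are short, abundant and begin with a run of pyrimidines at the cap, the 5′ TOP motif, through which mTOR signalling and the RNA-binding protein Larp1 control their translation and stability. In cartilage, chondrocytes need a large output of protein to build the collagen and proteoglycan matrix. miR-204 is a small RNA that guides Argonaute proteins to matches of its seed, mostly in 3′ UTRs, and lowers those transcripts.

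The transfected microRNA is shown first because matches to its seed (bases 2 to 8, in capitals) were searched in the members' 3′ UTRs. The sequence is RefSeq's for mouse (GRCm38, chr19:22750610-22750631, plus strand).
miR-204-5p: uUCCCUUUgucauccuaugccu
The match to the seed was searched in the GENCODE M21 3′ UTRs of 84 of the 85 members. The longest coding transcript matched to each gene was taken, and its coding sequence was not searched. A transcript for Rps4l was not used. An 8mer is AAAGGGAA, a 7mer-m8 is AAAGGGA and a 7mer-A1 is AAGGGAA, on the transcript's strand, each gene counted at its longest match. Of the 84 members, 5 (5.95%) held a 7mer or 8mer, against 2546 of 11222 tested genes (22.7%). The members' 3′ UTRs were short, with a median of 88 bases and a range of 28 to 4728, against a median of 1071 bases for all tested genes. A 3′ UTR under 100 bases was found in 48 members (57.1%) and in 4.33% of the tested genes. The best match of each of the 5 members is shown with its neighbouring bases, the matched bases in capitals.
Rpsa, chr9:120131517-120131524, plus strand: ggtgcctgagcAAAGGGAAaaaagatggaa
Rps20, chr4:3833242-3833249, minus strand: gggaggaccatAAAGGGAAatgcttaccat
Rps3, chr7:99478466-99478472, minus strand: tcccaagataaAAAGGGAgtttctactgcc
Rpl12, chr2:32964430-32964436, plus strand: agtaacaacacAAGGGAAaataatgctttg
Rps15a, chr7:118107847-118107853, minus strand: gaggtgatcccAAGGGAAggaggagcctgg
The match in Rpsa lies 23 bases into a 3′ UTR of 875 bases. Those in Rps20 and Rps15a lie in 3′ UTRs of 3167 and 4728 bases, far above the members' median. The match in Rpl12 lies past the end of its RefSeq gene, at 32964045. Which 3′ ends the cells used is not known from the table. Rps15a holds a further 7mer-A1 match in the same 3′ UTR.

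The starts of the genes are shown because a pyrimidine run is the feature these transcripts are known for. RefSeq start sequences (GRCm38.p6) matched 64 of the 85 members. A run was a C followed by at least 7 bases that are each C or T, between 30 bases before and 50 after the annotated start. On the sense strand, which reads as the transcript does, it was present in 47 of the 64 (73.4%) and in 2027 of 9272 tested genes (21.9%). On the other strand it was present in 9 members (14.1%) and in 25.2% of genes. The contrast was smaller for a shorter run, a C followed by at least 4 such bases. That run was on the sense strand in 58 of the 64 members (90.6%) and in 67.7% of genes. On the other strand it was in 64.1% of members and 75.2% of genes. The 6-base words GGGCGG and TATAAA, on either strand from 250 before to 50 after the start, were in 60.9% and 9.38% of members and in 67.2% and 6.77% of genes. The word GGAAG, also on either strand, was in 92.2% of members against 76.0%. On the other strand it reads CTTCC, which lies within some of the runs, such as that of Rps15. The count of this word is therefore not separate from that of the runs. A match is a description of these letters, not a site. Windows of 30 bases around the run, in capitals, are shown for members of both subunits and the stalk. Among them are those that the results turn on. Counted from the annotated start, the run's first base was at 26 in Rps15 and 24 in Rpl26. It was at −1 in Rps6, −2 in Rps27 and Rpl28 and −4 in Rplp2.
Rps6, chr4:86857349-86857378, minus strand: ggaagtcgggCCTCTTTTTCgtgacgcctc
Rps15, chr10:80292447-80292476, plus strand: cagcccgtaCTTCCTTTTCCgagtaaccgc
Rps27, chr3:90213631-90213660, minus strand: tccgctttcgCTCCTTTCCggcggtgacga
Rpl28, chr7:4792953-4792982, plus strand: cctctcgtgtCTCTCTTTCCgtctccggcc
Rpl26, chr11:68901580-68901609, plus strand: cgtgtagttCTCTTTCCTTTTgcggccatc
Rplp2, chr7:141447637-141447666, plus strand: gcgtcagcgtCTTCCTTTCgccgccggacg

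The ribosomal protein genes held 18.1 to 22.1% of all summed FPKM in the 8 libraries, and that share differed between the groups by less than the spread within them. Their share was 19.4, 18.1, 21.4 and 19.7% in miR-Ctrl replicates 1 to 4 and 19.1, 19.9, 22.1 and 19.7% in miR-204 replicates 1 to 4. The groups overlapped, with means of 19.7 ± 1.39 and 20.2 ± 1.33% (SD, n = 4). Within equal numbers the share with miR-204 differed by −0.37, 1.82, 0.65 and −0.078 percentage points. Most of the mean difference of 0.51 points came from the number 2 libraries, and without them it was 0.067 points. The highest share in each group was in replicate 3. In bulk RNA, fewer cells of a type and less of an RNA per cell cannot be told apart.

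Among the members, levels spanned from Rpl41, a very short protein of the large subunit, at 3381 FPKM to Rps27 at 13.8. The other members of highest mean were Rplp1 at 3328, the small-subunit genes Rps12 and Rps20 (2140), Rps27rt at 2018 and Rpl23a. The median member stood at 988 FPKM, against 9.28 for all tested genes. The order of the members was nearly the same in every library. Spearman's rho between any 2 libraries was 0.983 to 0.998 over the 85 genes, beside 0.931 to 0.988 over all tested genes. The 85 genes share libraries and length models and are not independent replicates. The members lie on 19 chromosomes, with 14 on chromosome 7 and 4 on X.

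**Figure D1:**
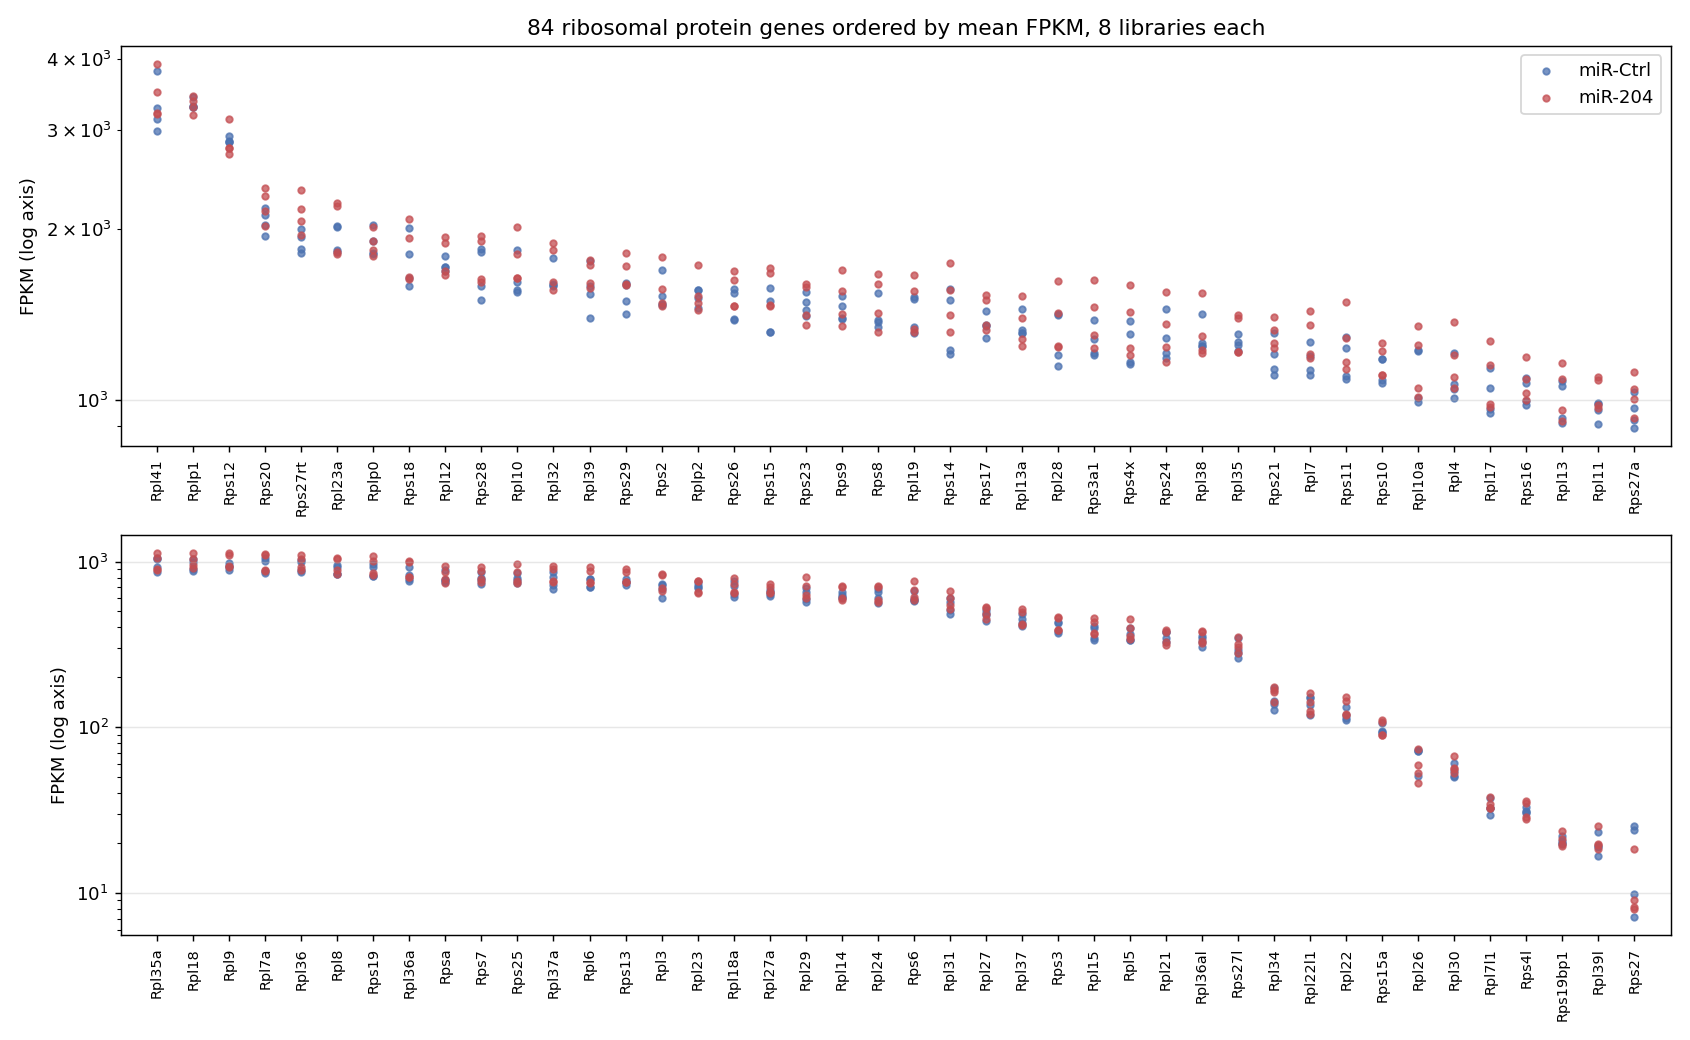
FPKM of each of 84 members in 8 libraries (points; blue miR-Ctrl, red miR-204; log axis), ordered by mean from left to right, the upper row holding the higher genes. Levels run from about 3381 for Rpl41 down to 13.8 for Rps27, and the colours overlap in every gene plotted.

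Many of these levels rest on sequence that other genes also carry, since ribosomal protein genes have many processed copies. The share of a member's 50-base words that also occur in a transcript of another gene had a median of 53.5% and exceeded 50% in 47 of 84 members. Members at 0 included Rps19bp1 and Rpl39l. Rps27, a zinc-finger protein of the small subunit, shared 98.6% of its words, and the gene with the most of them was Rps27rt on chromosome 9, a near-copy of it. Their levels were 13.8 FPKM for Rps27 and 2018 for Rps27rt. Rpl34, of the large subunit, was at 154 FPKM and its copy Rpl34-ps1, outside the rule, at 1276. How fragments were divided between such genes is not known here, so the split within each of these pairs is uncertain.

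No member was higher or lower with miR-204 in the unpaired fit (limma on log2(FPKM + 1), Benjamini-Hochberg adjusted p under 0.05 over 11612 genes). Members higher were 0 of 85, against 0.0258% of all tested genes, and members lower were 0 of 85, against 0.181%. At an unadjusted p under 0.05 the counts were again 0 higher, against 6.57% of genes, and 0 lower, against 2.02%. The lowest adjusted p of a member was 0.639 (Rps27rt). Groups without overlap were found in no member, with 4.32% of genes higher in that way and 1.58% lower. The 95% interval of the log2 fold change held 0 in all 85 members and lay within 0.5 in either direction in 83. Its half-width had a median of 0.22, and one of 0.10 in the fit with the replicate number as a block.

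Fold changes nevertheless lay mostly on the positive side, as they did across the transcriptome. The members' median log2 fold change was 0.073, against 0.064 for all tested genes and 0.067 for the 5536 genes at a mean of at least 10 FPKM. It was above 0 in 77 of 85 members (90.6%), against 74.1% of genes. A single library moved these medians. Without miR-204 replicate 3 the members' median was 0.029 against 0.078 for all genes, and without miR-Ctrl replicate 3 it was 0.11 against 0.039. When each library was centred on its median gene, the members' median was 0.0086 and 49 were above 0. In pairs of equal number the median member changed by 0.017, 0.11, 0.11 and 0.047, beside 0.052, 0.044, 0.097 and 0.069 for all genes. The members were thus above the median gene in pairs 2 and 3 and below it in pairs 1 and 4. In all, 49 members (57.6%) were higher with miR-204 in all 4 pairs, against 33.9% of genes, and 0 were lower in all 4, against 7.44%.

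With the replicate number as a block, Rps15 alone among the 85 passed the test. That is 1 member higher (1.18%) against 12.4% of all tested genes, and 0 lower against 2.83%. At an unadjusted p under 0.05, 24 members were higher (28.2%) against 29.9% of genes, and 1 was lower, Rpl26, against 5.73%. Of all calls in this fit 81.4% were higher, and this fell to 53.6% when libraries were centred. With centring, 0 members were higher, against 4.99% of genes, and 0 lower, against 4.32%. Leaving out both number 2 libraries in the fit with the block gave 7 members higher (8.24%), against 23.9% of genes, and 1 lower (1.18%), against 4.5%. These were Rpl34, Rps15, Rps14, Rps29, Rpl37a, Rpl31 and Rpl15, and, lower, Rpl26, and they were named after their values were seen. Leaving out the pair numbered 1, 3 or 4 gave 0 members, in fits that called 42 to 236 of all genes higher.

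**Figure D2:**
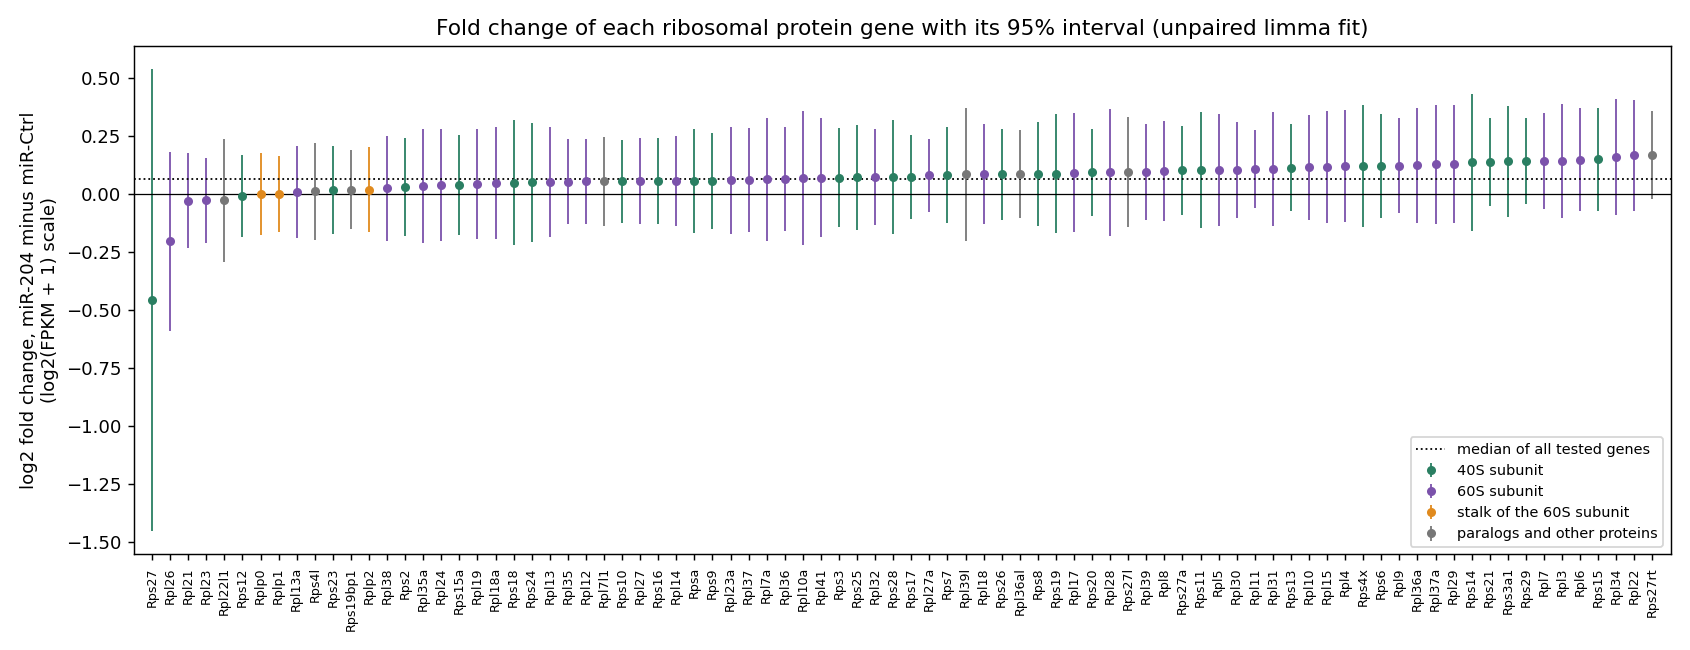
Log2 fold change of each of 84 members (vertical axis, log2(FPKM + 1) scale, miR-204 minus miR-Ctrl) with its 95% interval from the unpaired fit, ordered from lowest to highest and coloured by role. All intervals plotted hold 0, and Rps27 at −0.46 and Rpl26 at −0.21 stand at the low end.

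Among the 31 small-subunit genes the median log2 fold change was 0.073, and 29 were above 0. Rps15 (gene ID 20054, chr10:80292431-80294114), a protein of the head of the small subunit, was at 1317, 1575, 1497 and 1318 FPKM in miR-Ctrl replicates 1 to 4 and at 1473, 1677, 1712 and 1464 in miR-204. Its levels overlapped between the groups and were higher with miR-204 in each of the 4 pairs. The log2 fold change was 0.15 ± 0.096 (SE) with an adjusted p of 0.719, and in the limma fit with the block the SE was 0.038 and the adjusted p 0.0481. With centred libraries and the block the adjusted p was 0.198 at a log2 fold change of 0.085.

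Rps14, a small-subunit gene known for its loss in a myelodysplastic syndrome, was at 1226, 1498, 1570 and 1203 FPKM in miR-Ctrl and 1411, 1560, 1741 and 1316 in miR-204. It was among the 3 members of largest spread, with both groups high in replicates 2 and 3. Its log2 fold change was 0.14 (adjusted p = 0.822 in limma, 0.070 with the block). Rps6, whose protein is phosphorylated by the S6 kinases, was at 574, 591, 664 and 588 FPKM in miR-Ctrl and 589, 677, 762 and 609 in miR-204 (log2 fold change 0.12, limma adjusted p = 0.787). Rps19, a gene mutated in Diamond-Blackfan anaemia, was at 815, 962, 933 and 817 FPKM and then 825, 1010, 1076 and 848, again higher in both groups for numbers 2 and 3. Rps27a, which is made as a fusion with ubiquitin, had a mean of 953 ± 61.3 with miR-Ctrl and 1022 ± 78.3 FPKM with miR-204.

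Rpsa, the ribosomal protein also known as a laminin receptor, carries an 8mer match to miR-204. Its level was 756, 777, 893 and 775 FPKM in miR-Ctrl and 744, 867, 941 and 781 in miR-204, a log2 fold change of 0.055 ± 0.097 (limma adjusted p = 0.920). Rps20, with the other 8mer, was at 1949, 2118, 2179 and 2036 FPKM and then 2024, 2292, 2369 and 2153, higher with miR-204 in every pair (0.092, limma adjusted p = 0.806). Of the 5 members with a 7mer or 8mer, 5 had a fold change above 0, as 74.1% of all tested genes did. Of the 79 members searched that had none, 8 were below 0. With centred libraries 3 of the 5 were below 0, and 49 of all 85 members were above 0. The log2 fold changes of the 5 ran from 0.037 to 0.092 with a median of 0.055, beside a median of 0.080 over the 79.

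Rps27 (gene ID 57294) was the most variable member. Its level was 9.85, 25.5, 23.9 and 7.14 FPKM in miR-Ctrl and 8.25, 9.12, 18.3 and 8.02 in miR-204. Replicates 2 and 3 were high in miR-Ctrl and replicate 3 in miR-204, and the groups overlapped. The log2 fold change was −0.46 ± 0.43 (limma adjusted p = 0.821, 0.201 with the block). Its near-copy Rps27rt (gene ID 100043813) was at 1936, 1848, 2000 and 1815 FPKM in miR-Ctrl and 2068, 2174, 2348 and 1953 in miR-204. This is the member with the largest positive fold change, 0.17 ± 0.083 (limma adjusted p = 0.639, 0.054 with the block), and it was higher in all 4 pairs. Because the 2 genes share nearly all their sequence, the opposite signs cannot be assigned to either gene.

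Among the 43 large-subunit genes the median log2 fold change was 0.080, and 40 were above 0. Rpl5 and Rpl11, which form the 5S ribonucleoprotein that also binds the p53 regulator Mdm2, had means of 359 ± 29.5 and 958 ± 36.3 FPKM in the miR-Ctrl libraries and 386 ± 50.1 and 1032 ± 68.6 with miR-204. Rpl10, which joins the large subunit late in its assembly, was at 1551, 1613, 1840 and 1563 FPKM and then 1644, 1809, 2022 and 1638. It was higher with miR-204 in each pair, by 0.067 to 0.17 on the log2 scale, with overlapping groups (limma adjusted p = 0.804). Rpl41 was at 3131, 3277, 3813 and 2985 FPKM in the miR-Ctrl libraries and 3216, 3503, 3920 and 3202 with miR-204, with replicate 3 highest in both groups.

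Rpl26 (gene ID 19941, chr11:68901566-68904534), a large-subunit protein that also binds p53 mRNA, went against the other members. It was at 71.4, 72.6, 50.8 and 72.2 FPKM in miR-Ctrl and at 53.2, 73.7, 45.8 and 59.3 in miR-204. Replicate 3 was lowest in both groups, where most members were highest, and the groups overlapped. The log2 fold change was −0.21 ± 0.17 (limma adjusted p = 0.788, 0.097 with the block and 0.071 with the block and centred libraries). Within pairs it was −0.42, 0.022, −0.15 and −0.28, and leaving out pair 2 gave −0.28 with an adjusted p of 0.0195 in limma with the block. Of its 50-base words 71.3% occur in other genes.

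The stalk genes Rplp0, Rplp1 and Rplp2, whose acidic proteins recruit the elongation factors, had the smallest median spread of the 4 classes. Rplp0 was at 1812, 1906, 2039 and 1817 FPKM in miR-Ctrl and 1837, 1906, 2019 and 1796 in miR-204. Rplp1 was at 3294, 3308, 3428 and 3289 FPKM and then 3296, 3443, 3377 and 3191. Rplp2 was at 1513, 1564, 1562 and 1451 FPKM and then 1484, 1729, 1522 and 1443. In each gene the groups overlapped. Their log2 fold changes were −0.0028, −0.0016 and 0.018, with limma 95% intervals from −0.18 to 0.17, −0.17 to 0.16 and −0.17 to 0.20. Rplp1, Rps12 and Rplp0 had the smallest spread of all members, with SDs of 0.036, 0.062 and 0.071 on the log2 scale over the 8 libraries, against a median of 0.13 over the members.

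Summed over genes, the small subunit stood to the large subunit with its stalk in a ratio of 0.784, 0.786, 0.787 and 0.788 in miR-Ctrl and 0.794, 0.790, 0.791 and 0.797 in miR-204. The miR-204 values lay above all miR-Ctrl values, with a mean difference of 0.0067, and above their partner in each pair. Sums are set by the most abundant genes. With the median log2 level of each class in place of the sum, the difference was −0.0073 and the groups overlapped. The stalk genes had 0.168 ± 0.0052 of the summed FPKM of the other large-subunit genes with miR-Ctrl and 0.160 ± 0.0098 with miR-204, lower in all 4 pairs. No p is given for these ratios, which are scores over the members.

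**Figure D3:**
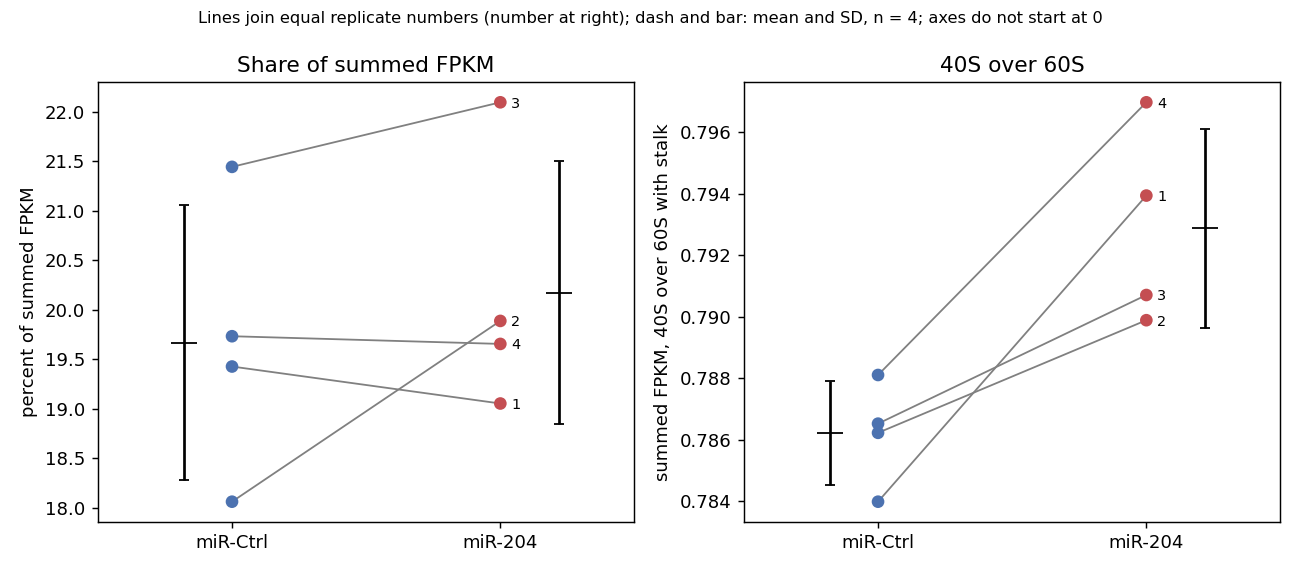
Left, percent of summed FPKM held by the 85 genes; right, ratio of summed FPKM of 40S genes to 60S genes with the stalk; grey lines join equal replicate numbers and black bars give mean and SD (n = 4). The shares overlap between groups, and the ratios with miR-204 (0.790 to 0.797) lie above those with miR-Ctrl (0.784 to 0.788) on an axis that does not start at 0.

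Among the 8 genes set apart, paralogs and their partners had fold changes of the same sign in the pairs compared, with exceptions. These were Rpl22 with Rpl22l1 and Rps27 (−0.46) with Rps27l (0.093). Of all members 90.6% were above 0, so an equal sign says little. With centred libraries Rpl7 (0.077) and Rpl7l1 (−0.011) differed in sign too, while Rpl39 with Rpl39l and Rpl36a with Rpl36al did not. Rpl22, a large-subunit protein, had a mean of 119 ± 9.57 FPKM in the miR-Ctrl libraries and 134 ± 17.6 with miR-204, a log2 fold change of 0.17 (limma adjusted p = 0.710). Its paralog Rpl22l1 was at 140 ± 15.5 and 137 ± 17.97 FPKM, a log2 fold change of −0.027. The difference between the 2 changes was not tested. Rpl39 and Rpl39l had log2 fold changes of 0.094 and 0.083 at 1620 and 20.2 FPKM, and Rpl7 and Rpl7l1 of 0.14 and 0.053 at 1234 and 33.7 FPKM. Rpl36a and Rpl36al had 0.12 and 0.084. Rpl3, of the peptidyl transferase region, had 0.14 and its muscle paralog Rpl3l was below the level cut. Rps19bp1, which is not a structural subunit but a binding partner of Rps19, was at 20.6 ± 0.995 FPKM in the miR-Ctrl libraries and 20.9 ± 1.95 with miR-204.

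More members differed between replicate numbers than between the groups. In the limma fit with both terms, the number passed an adjusted p of 0.05 in 56 of 85 members (65.9%), against 51.5% of all tested genes, a test added after the data were seen. All 3 stalk genes were outside the 56. The median member deviated from its own mean over the 8 libraries by −0.098, 0.0084, 0.057 and −0.13 in miR-Ctrl replicates 1 to 4 and by −0.078, 0.13, 0.19 and −0.077 in miR-204. Numbers 2 and 3 were thus high and 1 and 4 low in each group. The median over all genes followed this for number 2 and not for number 3. In the replicate 2 libraries, the highest of each group, it was 0.054 with miR-Ctrl and 0.094 with miR-204. In the replicate 3 libraries, the lowest of each group, it was −0.10 with miR-Ctrl and −0.013 with miR-204.

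**Figure D4:**
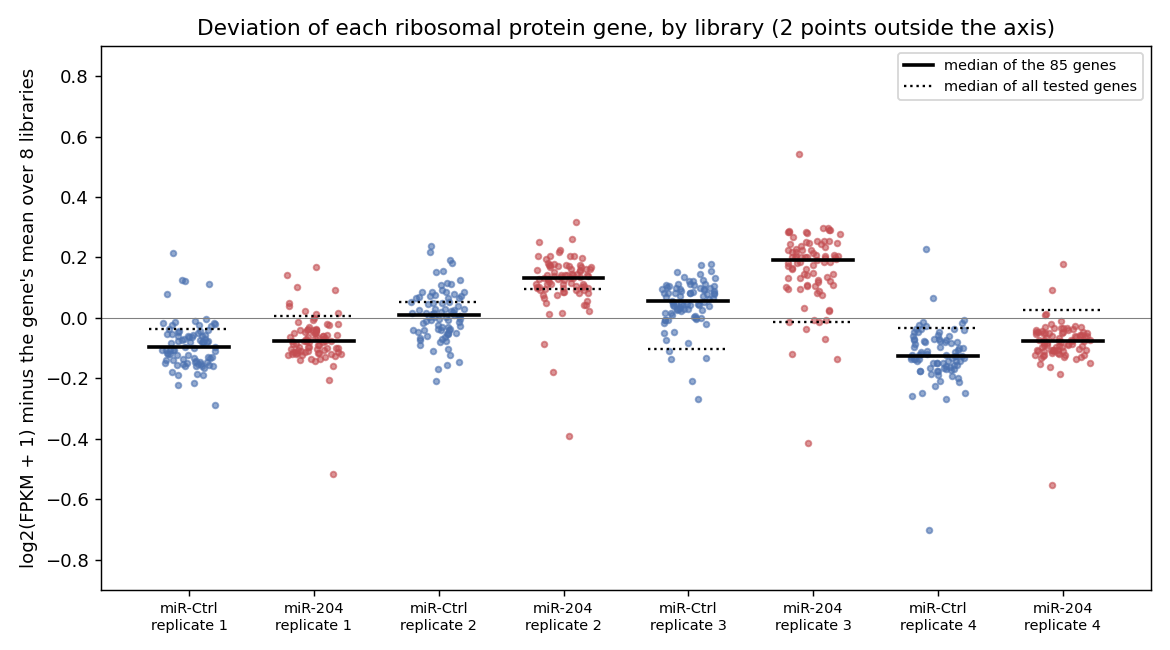
Each point is 1 gene's log2(FPKM + 1) minus its mean over 8 libraries, by library in pairs of equal number; solid bars are medians of the 85 genes and dotted bars medians of all tested genes, and 2 points of Rps27 lie outside the axis. In both replicate 3 libraries the solid bar (0.057 and 0.19) lies above the dotted bar (−0.10 and −0.013).

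Over the 8 libraries most members moved together. The correlation of a member with the median of the other members had a median of r = 0.92 over the 8 libraries, and 55 of 85 (64.7%) were above 0.9, against 0.33% of the other tested genes. These values share libraries, depth and scaling and are given as a description. Members with a negative r were Rps4l (−0.75), Rpl26 (−0.41), Rps21 (−0.34), Rpl22l1 (−0.066) and Rpl39 (−0.055), named after their values were seen. For Rpl22l1 and Rpl39 this was almost no correlation, as it was for Rpl30 (0.0028). Rps21, a small-subunit protein, was at 1313, 1105, 1131 and 1204 FPKM in miR-Ctrl and 1398, 1262, 1232 and 1326 in miR-204. It was highest in replicates 1 and 4 of each group, where most members were lowest, and still higher with miR-204 in each pair. Rps4l, a paralog of Rps4x, was at 30.5, 30.7, 31.4 and 33.02 FPKM and then 34.9, 27.7, 28.9 and 35.8.

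Fau and Gnb2l1 are ribosomal protein genes whose symbols the rule does not match, and both had fold changes above 0. Fau, the source of the small-subunit protein eS30, was at 745, 903, 834 and 729 FPKM in miR-Ctrl and 835, 955, 986 and 821 in miR-204. It was higher in each pair, and its log2 fold change of 0.16 passed in limma with the block (adjusted p = 0.045) and not without it (0.700) or with centred libraries (0.146). Gnb2l1, the scaffold Rack1, was at 1100 FPKM with a log2 fold change of 0.064.

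Genes around the ribosome were counted in the same fits, and none passed in the unpaired fit in any list. Of 76 mitochondrial ribosomal protein genes, 1 was higher in the fit with the block (Mrps23, log2 fold change 0.22) and 1 lower (Mrps34, −0.20), against 12.4% and 2.83% of all genes, with a list median of 0.045. With the block and centred libraries, Mrps23 was higher and Mrps34, Mrpl54 and Mrpl39 were lower. Mrps34 was at 33.7, 33.4, 32.2 and 33.9 FPKM in miR-Ctrl and 31.1, 28.1, 27.2 and 28.9 in miR-204, without overlap. Of 19 elongation factors and other genes known for 5′ TOP transcripts, 4 were higher with the block, against the same 12.4% of all genes: Vim (0.29), Hnrnpa1 (0.25), Eif3h (0.17) and Eef1d (0.17). Their list median was 0.11, and none of the 19 passed with centred libraries. Among 31 initiation factors, Eif3k alone was higher with the block (0.13), a call lost with centred libraries (limma adjusted p = 0.210), and the median was 0.020.

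Ribosome assembly factors, which process ribosomal RNA and build the subunits, had a median log2 fold change of −0.0066 over 44 genes, with 18 above 0 and no call in any direction. This is lower than the 0.073 of the members and the 0.064 of all genes, and the difference was not tested. RNA polymerase I and its factors, which transcribe ribosomal RNA, had a median of 0.057 over 15 genes and no call. Among 22 regulators of ribosomal protein synthesis, Eif4ebp2 and Rps6kb2 were lower with the block, against 2.83% of all genes. Eif4ebp2, a repressor of cap-dependent translation that mTOR controls, was at 15.8, 21.7, 16.4 and 15.3 FPKM in miR-Ctrl and 12.5, 16.2, 12.2 and 14.01 in miR-204, lower in each pair. Its log2 fold change was −0.31, with adjusted p-values of 0.553 in limma and 0.0206 with the block. Rps6kb2, an S6 kinase, was at 8.51, 9.34, 9.17 and 8.96 FPKM and then 7.31, 7.16, 7.98 and 7.75, without overlap. Its log2 fold change was −0.23 (limma adjusted p = 0.247, 0.0228 with the block). With centred libraries and the block the adjusted p-values were 0.0137 for Eif4ebp2 and 0.0109 for Rps6kb2. In that fit Akt1s1 (limma adjusted p = 0.0204) and Eif4ebp1 (0.0497) were lower too, so 4 of the 22 passed, against 4.32% of all genes.

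**Figure D5:**
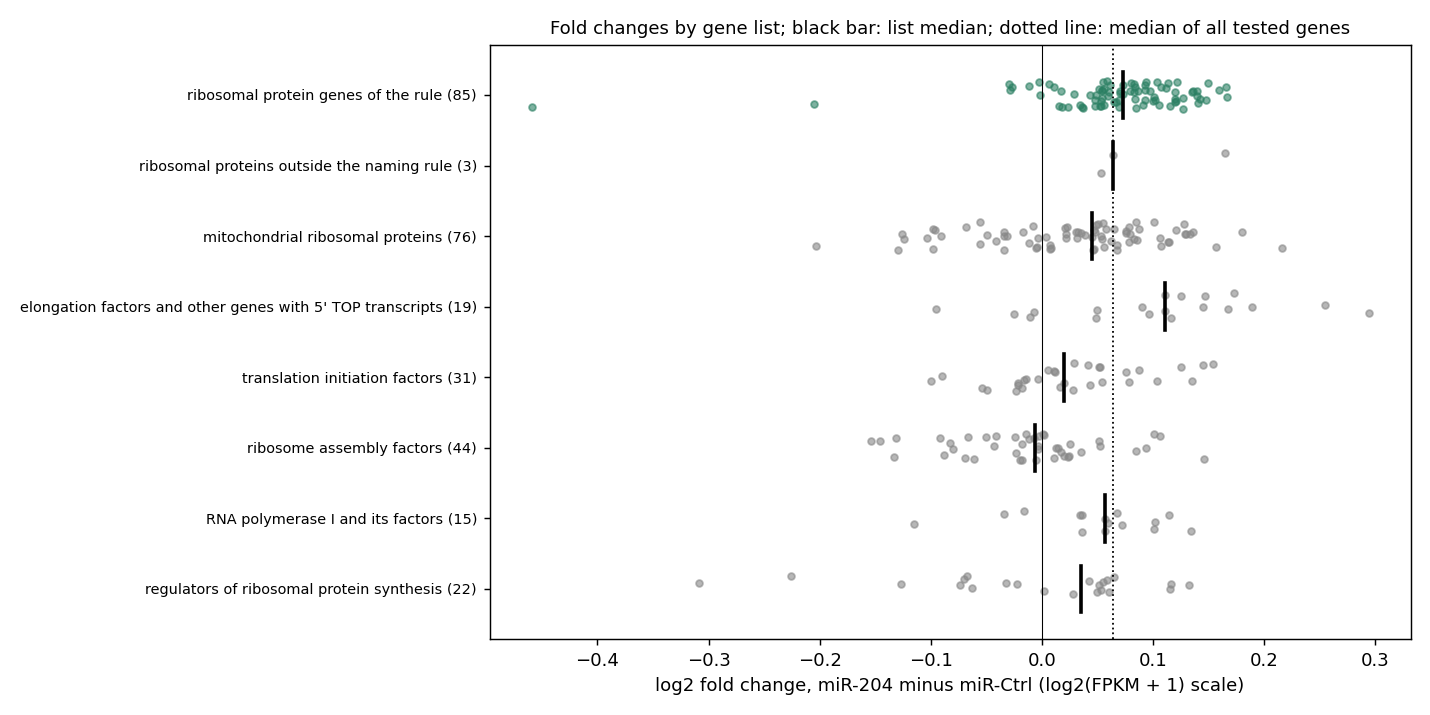
Log2 fold change (horizontal axis, log2(FPKM + 1) scale, unpaired fit) of every tested gene of each list, with list medians as black bars and the median of all tested genes as a dotted line. The ribosomal protein genes have a median of 0.073 and the assembly factors one of −0.0066, and Eif4ebp2 (−0.31) and Rps6kb2 (−0.23) are the lowest regulators.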

How the data were processed

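The authors deposited 1 table of FPKM values for 24067 genes and 8 libraries. Per the labels' protocols, libraries were stranded and poly(A)-selected. Per the submitters' processing notes, TopHat, Cufflinks 2.2.1 and the build mm10 were used. Not given in the sources used here are the Cufflinks mode, its filters and its treatment of fragments that match several genes. Of 158 symbols missing or turned into dates, 156 were restored by gene ID.

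The 11612 genes that averaged 1 FPKM or more were fitted on the log2(FPKM + 1) scale, using limma 3.58.1 (R 4.3.3), a trended prior and two-sided tests, Benjamini-Hochberg adjusted at 0.05. Fold changes on this scale understate those of low genes. The labels gave the groups and the replicate numbers. These paired the libraries: deviations of equal numbers correlated at r = 0.44, 0.82, 0.76 and 0.62 over all genes (0.67, 0.042, 0.92 and 0.69 over the members), and 8 of 8 libraries correlated best with their own number. The block is given where it changed a call or count. No 2 libraries held identical values.

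Named members were the 6 highest and 4 lowest, any called, those of largest and smallest spread, paralog pairs and a list of well-known members. The members, the lists and these rules were chosen with earlier results of these data known. Some genes of the rule or the lists are not reported here by name. The fits were tested on simulated data. Alternatives were scaling, filters, pseudocount, prior, block and leaving out libraries.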

Additional observations from a re-analysis of the deposited data

Results flagged for a closer look

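In 66 groups of 4 libraries looked at, 1 for each named member and for each summary in each group, 4 held a library far from the other 3 by Dixon's test at the 95% level. Chance flags about 1 in 20 groups. All 4 were replicate 3 libraries. Rplp1 was at 3428 FPKM in miR-Ctrl replicate 3, against 3289 to 3308 in the other miR-Ctrl libraries. Rpsa was at 893 FPKM in miR-Ctrl replicate 3, against 756 to 777. Rpl26 was at 50.8 FPKM in miR-Ctrl replicate 3, against 71.4 to 72.6, the only 1 of the 4 that was low. Rps27 was at 18.3 FPKM in miR-204 replicate 3, against 8.02 to 9.12. The cause was not tested.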

How the results depend on the processing

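Over 916 repeats of the 31 named members' fold changes, 837 kept their direction and side of the threshold, and 75 uncalled values changed sign. The other 4 passed only with the replicate block: Rps15 with all libraries, and Rps15, Rpl26 and Rps14 without the number 2 libraries. No member was called in the unpaired fit with all libraries, so no call of that fit could be reversed. With all libraries kept, the block, the prior and the filters leave a fold change as it is, so those repeats do not test its direction. The members' median of 0.073 became 0.0086 with centred libraries and 0.021 with quantile normalization, without and with the replicate block alike. Leaving out 1 library gave medians of 0.029 (without miR-204 replicate 3) to 0.11 (without miR-204 replicate 1 or 4 or miR-Ctrl replicate 3), 0.045 when miR-204 replicate 2 was dropped and 0.044 when miR-Ctrl replicate 4 was. Over members that share at most 50% of their 50-base words, an alternative added after seeing the data, it was 0.071. The share of summed FPKM held by all members was 22.5% without the 10 most abundant other genes, against 19.9%. The difference in this share, miR-204 minus miR-Ctrl, was then 0.22 points in place of 0.51. Without the number 2 libraries it was −0.23 points in place of 0.067, so its sign depended on these choices. Members higher numbered 1 with the replicate block and 7 with the block and without both number 2 libraries, when 1 was lower. Higher and lower genes of all tested numbered 3 and 21 in the unpaired limma fit. They numbered 0 and 9 with no filter on the mean (1123 and 357 unadjusted), 8 and 55 with centred libraries, and 7 and 66 with quantile normalization. With the replicate block they numbered 1436 and 329, with the block and centred libraries 579 and 502, with the block and quantile normalization 555 and 536, and with the block and equal sums 910 and 373. With the block and without both libraries of number 1, 2, 3 or 4 they numbered 89 and 83, 2781 and 522, 236 and 149, and 42 and 48. Leaving out 1 library or 1 number in the unpaired limma fit gave 0 to 4 higher and 0 to 16 lower, and unadjusted counts where a direction had 0 were 380 to 710 higher and 149 to 189 lower. Under the block, a library left out leaves its partner without weight, so leaving out single libraries was not run apart from leaving out pairs. The causes were not tested. Depth in reads is unknown, so no counting error is given.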
